A study of Mus musculus with 6 samples.

Results

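The dual-specificity MAP kinase phosphatases of the Dusp family were examined in normal livers and liver tumors of C3H mice. The members were the 10 genes Dusp1, Dusp2, Dusp4, Dusp5, Dusp6, Dusp7, Dusp8, Dusp9, Dusp10 and Dusp16, chosen as the members of this family that act on MAP kinases and found on the array by gene symbol. They were carried by 13 probes, out of 34741 genes and 55681 probes measured in all. Dusp7, Dusp8 and Dusp16 had 2 probes each. The samples were 3 normal livers and 3 liver tumors, each hybridised to its own 1-color array. All came from male C3H/HeN mice aged 74 to 75 weeks, an inbred strain in which liver tumors arise spontaneously with age. The mice were F2 offspring of a control group kept on standard diet and tap water, and each of the tumors analysed carried a Ha-ras mutation. No allele or agent was introduced in either group. Whether a normal liver and a tumor of the same number came from one mouse is not given in the sources used here, so that p-values measure the spread between these samples. RNA came from whole pieces of tissue, in which fewer cells of a type and less RNA per cell cannot be told apart.

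MAP kinase phosphatases switch off ERK, JNK and p38 by removing phosphate from both the threonine and the tyrosine of the activation loop. Many of their genes are themselves switched on by the pathway they restrain, so that they act as negative feedback. Dusp1, Dusp2, Dusp4 and Dusp5 encode nuclear enzymes whose genes respond rapidly to mitogens and stress. Dusp6, Dusp7 and Dusp9 encode cytoplasmic enzymes that prefer ERK, and Dusp8, Dusp10 and Dusp16 encode enzymes that prefer JNK and p38. Ha-ras, the gene mutated in these tumors, lies upstream of RAF, MEK and ERK.

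The expression value of a probe was its processed signal divided by the 75th percentile of the array, so that a value of 1 is the level of that percentile. That percentile was 123.857 to 176.828 in the normal livers and 171.02 to 182.627 in the tumors, and 44.7 to 48.9% of an array's spots were well above background. Slide and tissue cannot be told apart, since slide 1 held the normal livers and slide 2 the tumors, with a median local background of 42 to 45 and of 22 to 23. The defining hepatocyte markers were present on every array, and of the 7 markers Apoa1 was called higher with a log2 fold change of 0.90 and Cps1 lower with -1.48, while Alb, Ttr, Trf, Hnf4a and Serpina1a, between -0.24 and 0.16, were not called. A probe was tested with limma where it was well above background on all 3 arrays of a group, and called at a Benjamini-Hochberg adjusted p under 0.05. Values of different probes are not comparable as levels, since probes differ in how strongly they bind their target, and changes are given as ratios of the same probe.

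Dusp5, Dusp6, Dusp7, Dusp8 and Dusp16 were called higher in the tumors, and no member was called lower. Another 4, Dusp1, Dusp2, Dusp4 and Dusp10, were tested and not called, and Dusp9 did not pass the filter on dim probes. The calls thus covered 5 of the 9 tested members, while 13.1% of all tested genes were called higher, 21% lower and 34.1% in either direction. Dusp2, Dusp4, Dusp5, Dusp8 and Dusp10 passed the filter through the tumors alone, which favors genes that are higher there. Of such genes over the whole array 88.8% had a log2 fold change above 0 and 46.4% were called higher, and of these 5 members 2 were. The 4 members well above background on all 6 arrays were Dusp1, Dusp6, Dusp7 and Dusp16, of which 3 were called higher, against 11.1% of all genes of this kind. Each tumor lay above each normal liver for the 5 called members, which were chosen by their calls, so that this is a description. Over the array the same held for 18.3% of all tested genes and for 54.3% of those that passed through the tumors alone. An exact permutation test gave them a two-sided p of 0.1, the smallest that 3 against 3 samples allow. The median log2 fold change was 0.73 over the 9 tested members, also with Dusp5 at its bound, and 0.73 over all 10 without the filter, while that of all tested genes was -0.13. The plot of values by sample shows the separation of the groups gene by gene.

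**Figure D1:**
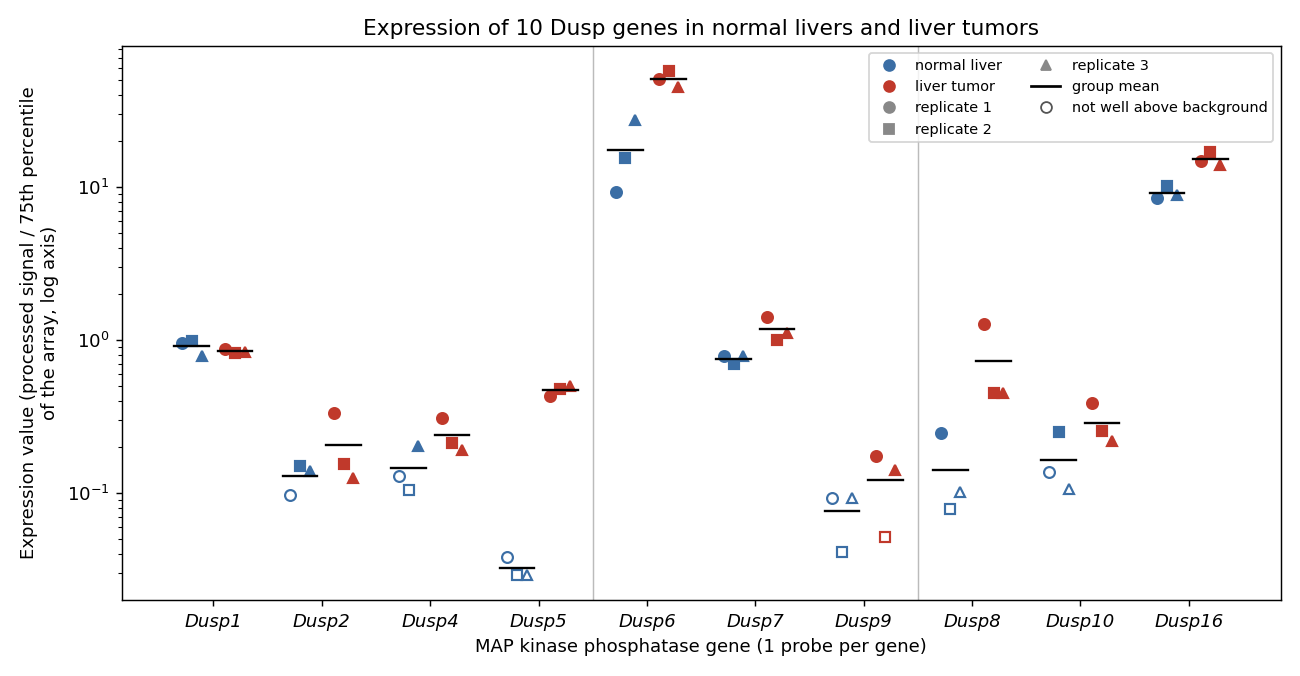
Expression value (processed signal over the 75th percentile of the array, log axis) of the 10 Dusp genes in 3 normal livers (blue) and 3 liver tumors (red), with 1 point per array, hollow where the probe was not well above background, and a line at the group mean. The groups are apart for Dusp5, Dusp6, Dusp7, Dusp8 and Dusp16 and overlap for the other 5 genes, and grey lines divide the nuclear, the cytoplasmic and the JNK and p38 enzymes.

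The promoters of the members were read for known response elements, because several of these genes are induced through them. RefSeq promoter windows of GRCm38.p6, from 250 bases before to 50 bases after an annotated start, were at hand for 8 of the 10 members, all but Dusp4 and Dusp9. They were searched on both strands for the cyclic AMP response element (CRE, TGACGTCA), the AP-1 site (TGANTCA), an ETS site (CCGGAA) and the CArG box that binds serum response factor, and also for the shorter core TGACG, which the CRE contains, the GC box of SP1 (GGGCGG) and the E-box (CACGTG). Of all 32851 windows 1.79% held a CRE, 7.81% an AP-1 site, 14.9% an ETS site and 1.63% a CArG box, while the TGACG core was in 20.8%, a GC box in 35.7% and an E-box in 7.15%. Dusp5 held 2 CArG boxes side by side, starting 82 and 72 bases before its start. Dusp8 held 2 CREs, starting 107 and 63 bases before its start, and Dusp1 held 1 CRE, starting 143 bases before it. No CRE, AP-1 site, ETS site or CArG box was found in the windows of Dusp2, Dusp6, Dusp7, Dusp10 and Dusp16. Of the more common elements, the TGACG core was in Dusp2, Dusp5 and Dusp16 besides Dusp1 and Dusp8, the E-box in Dusp1 and Dusp2, and the GC box in each of the 8 windows except that of Dusp6. The 150 bases before the start are printed 5′ to 3′ for the 3 genes with a CRE or CArG box, and for Dusp6 as a called gene with no match of any element searched, with the CRE and CArG box matches in capitals. They lie at chr19:53528995-53529144 (plus strand, Dusp5), chr7:142095285-142095434 (minus strand, Dusp8), chr17:26508473-26508622 (minus strand, Dusp1) and chr10:99263081-99263230 (plus strand, Dusp6).
Dusp5: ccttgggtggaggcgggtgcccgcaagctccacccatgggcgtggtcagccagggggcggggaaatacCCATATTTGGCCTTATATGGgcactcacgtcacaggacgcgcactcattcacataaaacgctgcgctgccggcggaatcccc
Dusp8: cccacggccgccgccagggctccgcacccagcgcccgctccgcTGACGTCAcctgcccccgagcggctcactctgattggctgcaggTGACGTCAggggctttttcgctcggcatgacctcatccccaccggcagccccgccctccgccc
Dusp1: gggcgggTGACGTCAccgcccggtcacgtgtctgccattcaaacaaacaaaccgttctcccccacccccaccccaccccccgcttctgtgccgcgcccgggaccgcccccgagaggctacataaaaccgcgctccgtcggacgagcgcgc
Dusp6: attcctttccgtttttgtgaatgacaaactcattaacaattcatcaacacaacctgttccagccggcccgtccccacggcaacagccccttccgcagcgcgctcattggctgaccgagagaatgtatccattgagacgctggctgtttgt
The start used lies inside the outer bounds of the annotated gene by 623 bases for Dusp8, 14435 for Dusp16 and 72 for Dusp7. The starts used for Dusp1, Dusp2, Dusp5, Dusp6 and Dusp10 lie at the edge of the gene. The outer start of Dusp16 was thus not searched. A match of letters is a description and was not tested for use in these tissues, and Dusp1 and Dusp8, which share the CRE, differed in their calls.

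**Figure D2:**
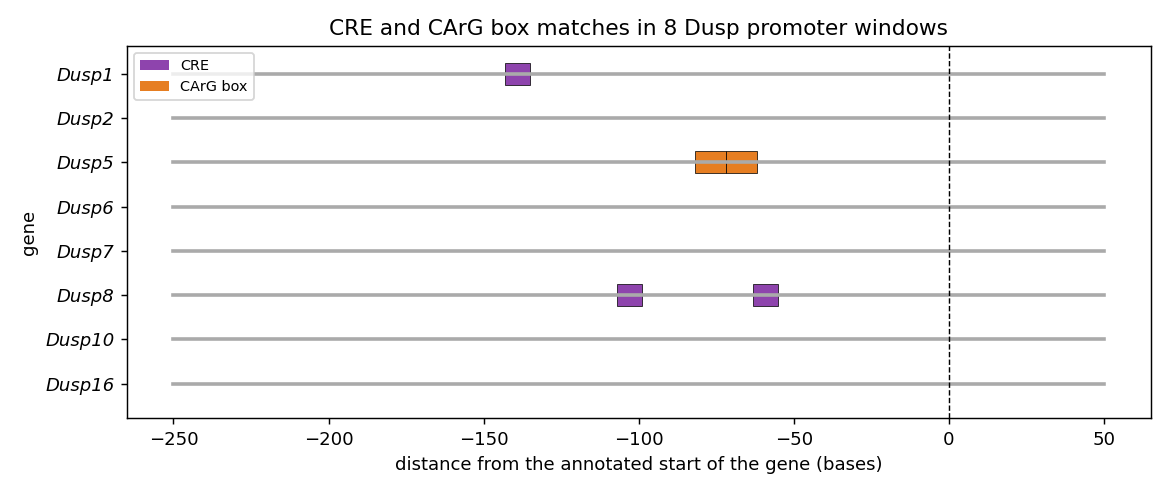
Position of CRE (purple) and CArG box (orange) matches in the promoter windows of 8 Dusp genes, in bases from the annotated start (dashed line). Dusp5 holds 2 adjoining CArG boxes between 82 and 63 bases before the start, Dusp8 2 CREs and Dusp1 1 CRE, and the other windows hold no CRE, CArG box, AP-1 or ETS site.

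Dusp5 encodes a nuclear phosphatase that is selective for ERK, which it also holds in the nucleus. Its probe read 0.038, 0.029 and 0.029 in normal livers 1, 2 and 3 and 0.434, 0.477 and 0.501 in tumors 1, 2 and 3. The signal was well above background in 3 of 3 tumors but in 0 of 3 normal livers, and the highest tumor was only 1.15-fold above the lowest. The normal livers therefore gave only a bound, taken on each of their arrays as the weakest signal that still counted as well above background, or the reading of Dusp5 if stronger, averaged as log2. Against it Dusp5 was at least 4.14-fold higher in tumor on the processed signal. Limma's adjusted p of 4.21e-05 belongs to the fit of the measured readings, dim ones included, and does not test this bound. The measured means were 0.032 ± 0.005 (SD, n = 3) for normal liver and 0.471 ± 0.034 (SD, n = 3) for tumor. With normexp, another background correction, which raises dim signals by an offset, the fitted log2 fold change of Dusp5 was 0.99 in place of 3.87 and was still called (limma's adjusted p = 9.38e-04). Dusp5 was called with each of the 6 arrays left out in turn.

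Dusp1, also known as MKP-1, is the best known inducible phosphatase of the family and acts on p38 and JNK as well as ERK. It read 0.964, 0.990 and 0.788 in the normal livers and 0.880, 0.829 and 0.834 in the tumors, so that all tumors fell within the range of the normal livers. Its log2 fold change was -0.10 with a 95% interval from -0.41 to 0.20 (limma's adjusted p = 0.572). The sign depended on the scaling, since it was 0.02 with the percentile taken over detected probes and 0.05 with scaling by spike-in controls.

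Dusp2, a phosphatase known mainly from activated lymphocytes, read 0.097, 0.150 and 0.139 in the normal livers and 0.334, 0.155 and 0.126 in the tumors. Tumor 1 stood above all other samples, while tumors 2 and 3 lay close to the normal livers. The log2 fold change was 0.56 (95% interval -0.35 to 1.47, limma's adjusted p = 0.296). It was 0.14 without tumor 1 and -0.0029 with normexp.

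Dusp4, a nuclear enzyme that acts on ERK and JNK and is a known target of ERK signaling, read 0.131, 0.105 and 0.202 in the normal livers and 0.311, 0.212 and 0.193 in the tumors. Normal liver 3 was level with tumors 2 and 3, and the probe was well above background in 1 of 3 normal livers. The log2 fold change of 0.73 had a 95% interval from 0.04 to 1.42 and was not called over all probes (limma's adjusted p = 0.0971). Dusp4 was called without normal liver 3 (log2 fold change 0.99, limma's adjusted p = 0.0410) and with spike-in scaling (0.88, limma's adjusted p = 0.0427), and had 0.06 with normexp.

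Both tested cytoplasmic enzymes were called higher, Dusp6 with the larger value. Dusp6, or MKP-3, binds and inactivates ERK and is among the standard transcriptional readouts of ERK activity. It read 9.25, 15.4 and 27.4 in normal livers 1, 2 and 3 and 50.8, 57.1 and 45.2 in tumors 1, 2 and 3. The normal livers spread over 2.96-fold and the tumors over 1.26-fold, yet the lowest tumor was 1.65-fold above the highest normal liver. The means were 17.4 ± 9.3 (SD, n = 3) and 51.0 ± 6.0 (SD, n = 3), a log2 fold change of 1.69 (95% interval 0.79 to 2.59, limma's adjusted p = 0.0170). The size moved from 1.31 without normal liver 1 to 2.09 without normal liver 3. The call was lost without normal liver 2 (log2 fold change 1.67, limma's adjusted p = 0.0547) or tumor 2 (1.60, limma's adjusted p = 0.0515).

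Dusp7, a close relative of Dusp6 with the same preference for ERK, read 0.782, 0.698 and 0.790 in the normal livers and 1.41, 1.002 and 1.11 in the tumors. All tumors lay above all normal livers, the lowest by 1.27-fold. The log2 fold change was 0.62 (95% interval 0.25 to 0.99, limma's adjusted p = 0.0251). The second probe also separated the groups, with 0.408 to 0.528 in the normal livers and 0.543 to 0.627 in the tumors, but its log2 fold change of 0.33 was not called (limma's adjusted p = 0.109). The call of the first probe was lost without normal liver 1, 2 or 3, with limma's adjusted p of 0.0590, 0.0852 and 0.0563 and log2 fold changes of 0.65, 0.56 and 0.65.

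Dusp9, the third ERK-selective enzyme, known from placenta, was well above background in tumors 1 and 3 and in no other sample. It read 0.093, 0.041 and 0.093 in the normal livers and 0.174, 0.052 and 0.142 in the tumors, and the groups overlapped because of tumor 2. It was not tested, as it missed the filter in both groups, and the lowest signal that counted as well above background was 0.113 on the array of tumor 1 and 0.105 on that of tumor 3.

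In the group that prefers JNK and p38, Dusp8 and Dusp16 were called. Dusp8, an enzyme described mainly in brain and heart, read 0.247, 0.079 and 0.103 in the normal livers and 1.28, 0.450 and 0.452 in the tumors. The probe was well above background in every tumor but only in normal liver 1 of the normal livers, so that its fold rests in part on dim readings. Tumor 1 was 2.84-fold above the mean of the other tumors and normal liver 1 was the highest normal liver, and the lowest tumor was 1.82-fold above it. The log2 fold change was 2.35 (95% interval 0.998 to 3.69, limma's adjusted p = 0.0219), and 1.84 without tumor 1 (limma's adjusted p = 0.0391). The second probe read 0.399, 0.191 and 0.188 in the tumors, where it was well above background, as it was in 0 of 3 normal livers. By the same kind of bound it was at least 2.03-fold higher in tumor, and the fit of its measured readings was called (limma's adjusted p = 0.0383). The call of the first probe was lost without normal liver 2 (log2 fold change 2.01, limma's adjusted p = 0.0686) or normal liver 3 (2.20, limma's adjusted p = 0.0674), and with normexp (0.81, limma's adjusted p = 0.0595).

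Dusp10, or MKP-5, read 0.137, 0.253 and 0.107 in the normal livers and 0.391, 0.253 and 0.221 in the tumors. Normal liver 2, the only normal liver well above background, was level with tumors 2 and 3. The log2 fold change of 0.85 was not called (95% interval -0.01 to 1.72, limma's adjusted p = 0.115). It was called without normal liver 2 (1.21, limma's adjusted p = 0.0382), and was 0.21 with normexp.

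Dusp16, or MKP-7, shuttles between nucleus and cytoplasm and prefers JNK. It read 8.45, 10.1 and 8.91 in the normal livers and 14.7, 17.0 and 13.8 in the tumors. The spread within a group was small, 1.19-fold in the normal livers and 1.23-fold in the tumors, and the lowest tumor was 1.37-fold above the highest normal liver. The log2 fold change was 0.73 (95% interval 0.41 to 1.04, limma's adjusted p = 0.00871), and between 0.64 and 0.80 with any 1 array left out, each time called. The second probe, with 0.413 to 0.603 in the normal livers and 0.612 to 0.887 in the tumors, had a log2 fold change of 0.58 that was not called (limma's adjusted p = 0.0657).

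**Figure D3:**
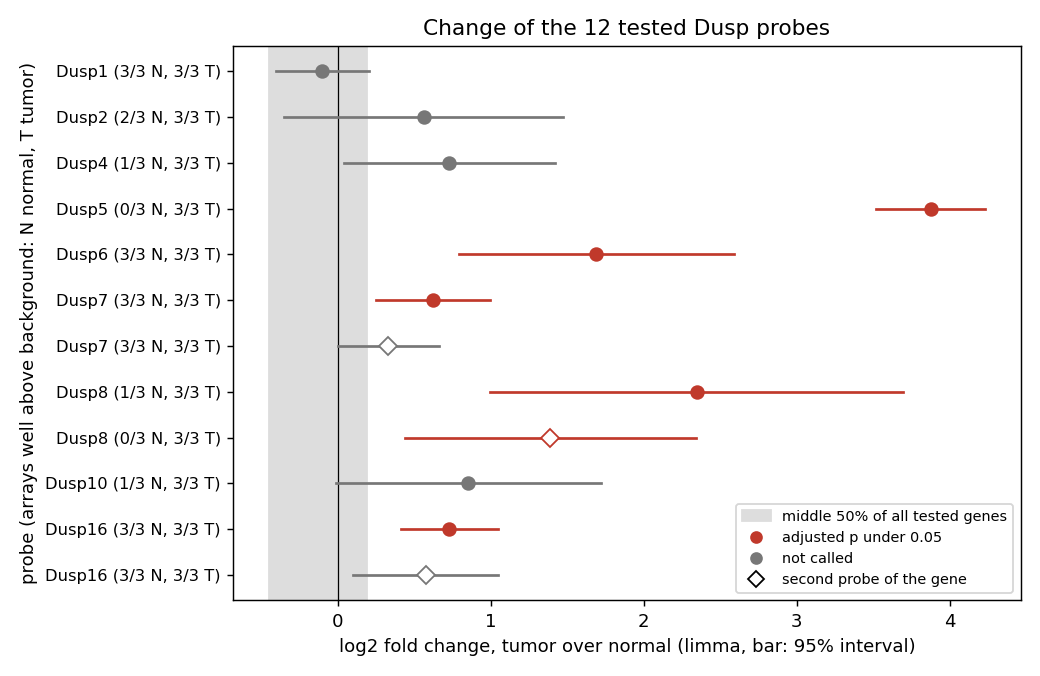
Log2 fold change of liver tumor over normal liver for the 12 tested Dusp probes, with the 95% interval of limma as a bar, in red where called. The grey band spans the middle 50% of all tested genes, from -0.45 to 0.19, and the intervals of Dusp5, Dusp6, Dusp7, Dusp8 and Dusp16 on their main probe lie above it.

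Among the called members other than Dusp5, the log2 fold changes ranged from 0.62 for Dusp7 to 2.35 for Dusp8, and for Dusp5 the processed signal gave only a bound of 2.05. The fit of Dusp5 with normexp, 0.99, lay below that bound. Whether the members differed from each other in their change was not tested. Tumor 1 was the highest tumor for 7 of the 10 members, with the largest excess over the mean of the other tumors for Dusp8 (2.84-fold) and Dusp2 (2.38-fold). The exceptions were Dusp5, Dusp6 and Dusp16, for which tumor 1 was 0.887, 0.994 and 0.954 times that mean. How often tumor 1 was the highest tumor over all genes was not counted. Over the tested probes its array correlated least with the normal livers (Pearson r of 0.9139 to 0.9157, against 0.9428 to 0.9495 for tumors 2 and 3). The genes whose pattern was nearest to that of Dusp5, by the Euclidean distance of log2 values over the 6 arrays after centring on the normal livers, included Tmem54 (distance 0.58, log2 fold change 3.64) and Pkmyt1, which encodes an inhibitory kinase of Cdk1 (distance 0.61, log2 fold change 3.77). The nearest of all was a probe without a gene name (distance 0.53, log2 fold change 3.94). The search took in the 16482 genes well above background on all 6 arrays, and the dim readings of Dusp5 in the normal livers set its side of the distance.

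The genes of MAP kinases were called in both directions. Of the 9 tested MAP kinases 2 were called higher and 2 lower, beside 13.1% and 21% of all tested genes, and the median log2 fold change was -0.22 beside -0.13 over all tested genes. Mapk7, which encodes ERK5, read 1.66, 1.43 and 1.77 in the normal livers and 4.18, 3.21 and 3.23 in the tumors. This log2 fold change of 1.12 (limma's adjusted p = 0.00371) was called with each array left out in turn. Mapk3, which encodes ERK1, was called higher with 0.50 (limma's adjusted p = 0.0348). Mapk9, which encodes JNK2, was called lower with -0.46 (limma's adjusted p = 0.0398). The call of Mapk9 was lost with any 1 array left out, with each other scaling and with normexp, while its direction was kept, and with arrays left out 1 or 2 of the 9 genes were called. Mapk3 was called in 1 of the 6 fits with an array left out, that without tumor 1. Mapk10, which encodes the neuronal JNK3, was well above background on no array.

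Of the 7 MAP kinase kinases, all well above background, none was called higher and 2 were called lower, beside 21% of all tested genes. Map2k6, which activates p38, read 1.69, 1.71 and 1.12 in the normal livers and 0.362, 0.762 and 0.744 in the tumors, which gave a log2 fold change of -1.33 (limma's adjusted p = 0.0252). It was not called without normal liver 1 or normal liver 2, with limma's adjusted p of up to 0.0805. Map2k3, the other activator of p38, was called with -0.40 (limma's adjusted p = 0.0394), but only in 1 of 6 fits with an array left out and under no other scaling. Map2k1 and Map2k2, which encode MEK1 and MEK2, had log2 fold changes of -0.26 and -0.20 and were not called.

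Most of the tested genes known to respond to ERK were called higher. Of 12 tested genes 9 were called higher and 1 lower, with a median log2 fold change of 1.07 (0.90 over all 18 genes of the list without the filter), and 10 of the 12 were well above background on all arrays, of which 7 were called higher, beside 11.1% of all such genes. Ccnd1, which encodes cyclin D1, read 1.82, 1.42 and 2.35 in the normal livers and 9.24, 8.79 and 6.36 in the tumors, which gave a log2 fold change of 2.14 (limma's adjusted p = 0.00173). Spry1, an inhibitor of receptor tyrosine kinase signaling, had 1.76, and Plaur, the urokinase receptor, 1.87 (limma's adjusted p = 0.00690 and 0.00985). Plaur was well above background in 2 of 3 normal livers and passed the filter through the tumors alone. With normexp Ccnd1, Spry1 and Plaur had 1.97, 1.47 and 0.78. Ier3 was dim in all normal livers, which gave only a bound, and was at least 4.49-fold higher in tumor on the processed signal. The fit of its measured readings was called (log2 fold change 2.49, limma's adjusted p = 0.00594), and gave 0.89 with normexp. Spred1, Spred2, Etv4, Etv5 and Emp1 were the other genes called higher. Etv1, an ETS factor of the same subfamily as Etv4 and Etv5, was called lower with -1.01 (limma's adjusted p = 0.0296). With an array left out, Etv1 and Spred2 kept their call in 2 of 6 fits and Etv4 in 1 of 6, while the other called genes kept theirs in each. Etv1 was also not called with spike-in scaling (limma's adjusted p = 0.0588), nor Spred2 with normexp (limma's adjusted p = 0.0934). Phlda1 and Epha2 were not called, with log2 fold changes of -0.65 and 0.78. Dusp4, Dusp5 and Dusp6 would belong to such a list and were not counted in it.

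Dusp1, Dusp2, Dusp4 and Dusp5 are often grouped with the immediate early genes, whose transcription starts within minutes of a stimulus. Of 15 tested genes of this kind 11 were called higher and none lower, with a median log2 fold change of 1.51, or 1.26 with the genes dim in every normal liver at their bound. Fos, Egr2 and Junb passed the filter through the tumors alone, and of the 12 well above background on all arrays 8 were called higher, beside 11.1% of all such genes. Egr1 read 0.555, 1.17 and 2.10 in the normal livers and 36.4, 40.5 and 14.1 in the tumors, which gave a log2 fold change of 4.63 (limma's adjusted p = 0.00289). Btg2, an antiproliferative gene that p53 also induces, had 4.17, and Junb had 2.05 (limma's adjusted p = 2.16e-04 and 0.00515). Fos was well above background in no normal liver and was at least 4.21-fold higher in tumor on the processed signal. The fit of its measured readings was called (limma's adjusted p = 0.00417). Every scaling kept these directions. With normexp the fitted log2 fold change fell from 3.29 to 0.87 for Fos and from 2.05 to 0.89 for Junb, while Egr1 and Btg2 had 4.15 and 3.08. Of the other called genes, Ier2 kept its call in 2, Atf3 in 1, Zfp36 in 4 and Klf4 in 4 of the 6 fits with an array left out, and Egr2 lost it with normexp. Fosb, Jun, Jund and Myc were not called, with -0.04, 1.26, 0.43 and -0.39. For Jun and Jund each tumor still lay above each normal liver. Jun was called with normexp and spike-in scaling, and Jund with normexp, quantile normalization and the percentile over detected probes. Like Dusp1, Fosb had a log2 fold change near 0, and the difference between Dusp1 and the list was not tested.

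Dusp1 is also a known target of the glucocorticoid receptor. Of 10 tested genes that respond to glucocorticoids 2 were called higher and 2 lower, beside 13.1% and 21% of all tested genes. The median log2 fold change of the list was 0.25, beside -0.13 over all tested genes. Fkbp5, a co-chaperone of the receptor, and Errfi1, an inhibitor of the EGF receptor, were called higher with 1.03 and 0.51 (limma's adjusted p = 0.0302 and 0.0435). Tat, which encodes tyrosine aminotransferase, and Tsc22d3, which encodes GILZ, were called lower with -1.43 and -1.12 (limma's adjusted p = 0.00351 and 0.0255). Tat was called with each array left out, and the number of called genes lay between 1 and 4 over these fits. Fkbp5 and Tsc22d3 kept their call in 2 of the 6 fits and Errfi1 in 1. Errfi1 was also not called with spike-in scaling (limma's adjusted p = 0.0515).

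Phosphatases outside the family gave 1 call in each of 2 lists, both lower, beside 21% of all tested genes. Of 18 atypical dual-specificity phosphatases, which lack the MAP kinase binding domain, 8 were tested, none was called higher, and Dusp28 was called lower with -0.54 (limma's adjusted p = 0.0483). The median log2 fold change was 0.01, and 8 genes of the list were well above background on no array. Of 8 tested tyrosine and serine/threonine phosphatases that also act on MAP kinases, none was called higher and Ppp2r1b, a scaffold subunit of PP2A, was called lower with -0.60 (limma's adjusted p = 0.0230). Their median was -0.11. The calls of Dusp28 and Ppp2r1b held in 1 of 6 fits with an array left out. The plot of the lists sets these changes side by side.

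**Figure D4:**
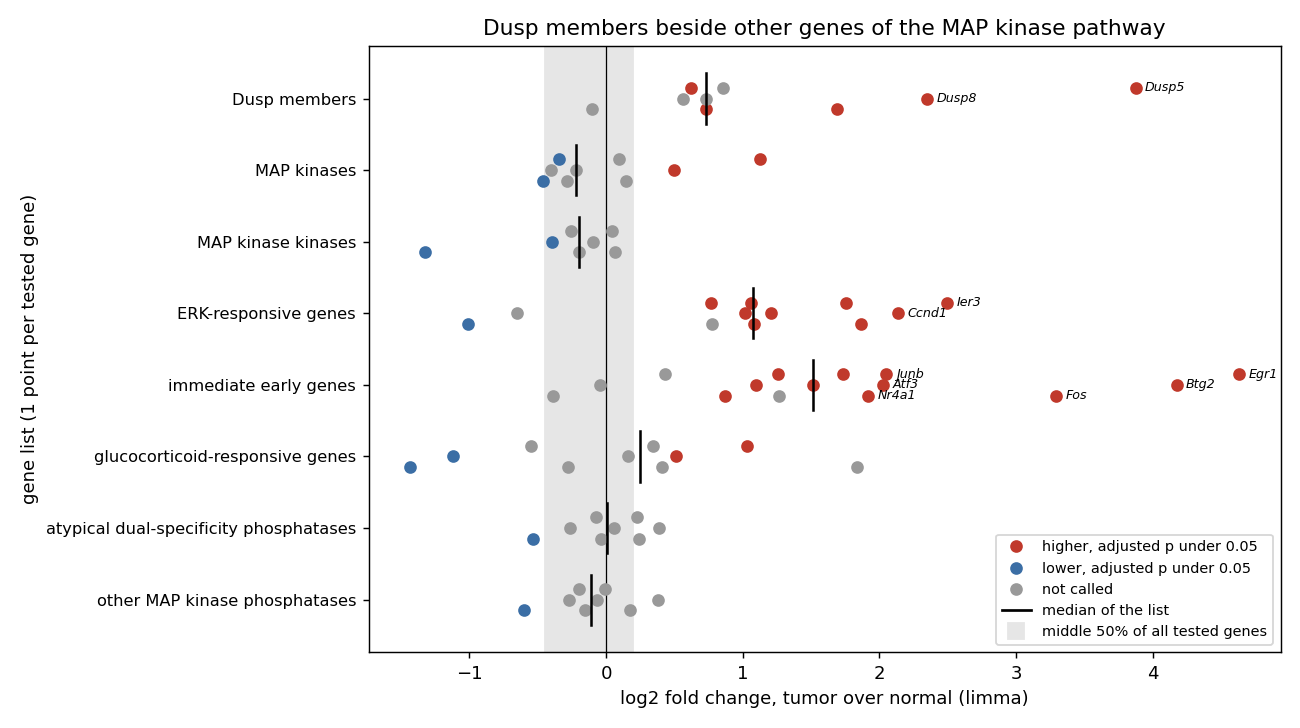
Log2 fold change of liver tumor over normal liver for each tested gene of the Dusp members and of 7 lists, red where called higher, blue where called lower and grey where not called, with a black line at the median of each list and a grey band over the middle 50% of all tested genes. The medians are 0.73 for the Dusp members, 1.07 for ERK-responsive genes and 1.51 for immediate early genes, and between -0.22 and 0.25 for the other lists, and the points of Dusp5, Ier3, Fos and Egr2 are fitted values of genes dim in every normal liver.

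Some markers of other liver cells were called as well, while of all tested genes 13.1% were called higher and 21% lower. Of 7 macrophage markers 4 were called lower and none higher, among them Clec4f and Vsig4 of Kupffer cells with log2 fold changes of -1.84 and -1.27 (limma's adjusted p = 0.0102 and 0.00368), and their summed value was 74.5 to 118.8 in the normal livers and 37.9 to 60.1 in the tumors. A summed value is led by the markers that read highest, such as Csf3r among the neutrophil markers (151.2 in the normal livers and 151.0 in the tumors on average) and Col1a2 among those of stellate cells and fibroblasts (3.86 and 5.52). Of 8 lymphocyte markers 3 were tested and Cd4 alone was called, with 58.8 to 60.9 in the normal livers and 134 to 235 in the tumors, while Cd3e had a log2 fold change of 0.03 and Cd8a was well above background on no array. Of the 7 stellate cell and fibroblast markers Col1a1 was called higher and Pdgfrb, Lrat and Des lower, while the summed value was 6.953 to 10.998 in the normal livers and 10.994 to 16.1 in the tumors. The 6 of them well above background on all 6 arrays held 1 of the higher and 2 of the lower calls. The remaining lower call passed the filter through the normal livers alone, which favors genes that are lower in the tumors. Of 7 endothelial markers Stab2 and Clec4g were called lower and the rest not called. Clec4g (limma's adjusted p = 0.0496) kept its call in 1 of 6 fits with an array left out and under no other scaling or background correction. Lyve1 moved the other way, with a mean of 0.515 in the normal livers and 1.44 in the tumors. The groups overlapped for Lyve1, which was not called (limma's adjusted p = 0.0913) except with spike-in scaling (limma's adjusted p = 0.00610). The summed value of the endothelial markers was 103.9 to 117.4 against 80.4 to 89.0, while their median log2 fold change was -0.0026. None of the 4 tested neutrophil markers and none of the 4 tested cholangiocyte markers was called, with summed values of 146.1 to 166.7 against 129.5 to 180.2 and of 2.33 to 2.93 against 1.89 to 2.19. The 7 hepatocyte markers had a summed value of 6924 to 7899 against 7379 to 7649. The part of these cell types in the changes of the Dusp genes was not tested.

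The calls of the members depended unequally on the processing, as the plot of settings shows. Dusp5 and Dusp16 kept their call under every alternative without pairing in which they were tested. Of the other called members, Dusp6 and Dusp7 were called under each other scaling and normexp, and Dusp8 under each other scaling but not with normexp. Without a filter on dim probes, which adds dim probes to the adjustment, only Dusp5 and Dusp16 were called, and limma's adjusted p was 0.0528 for Dusp6, 0.0916 for Dusp7 and 0.0623 for Dusp8.

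**Figure D5:**
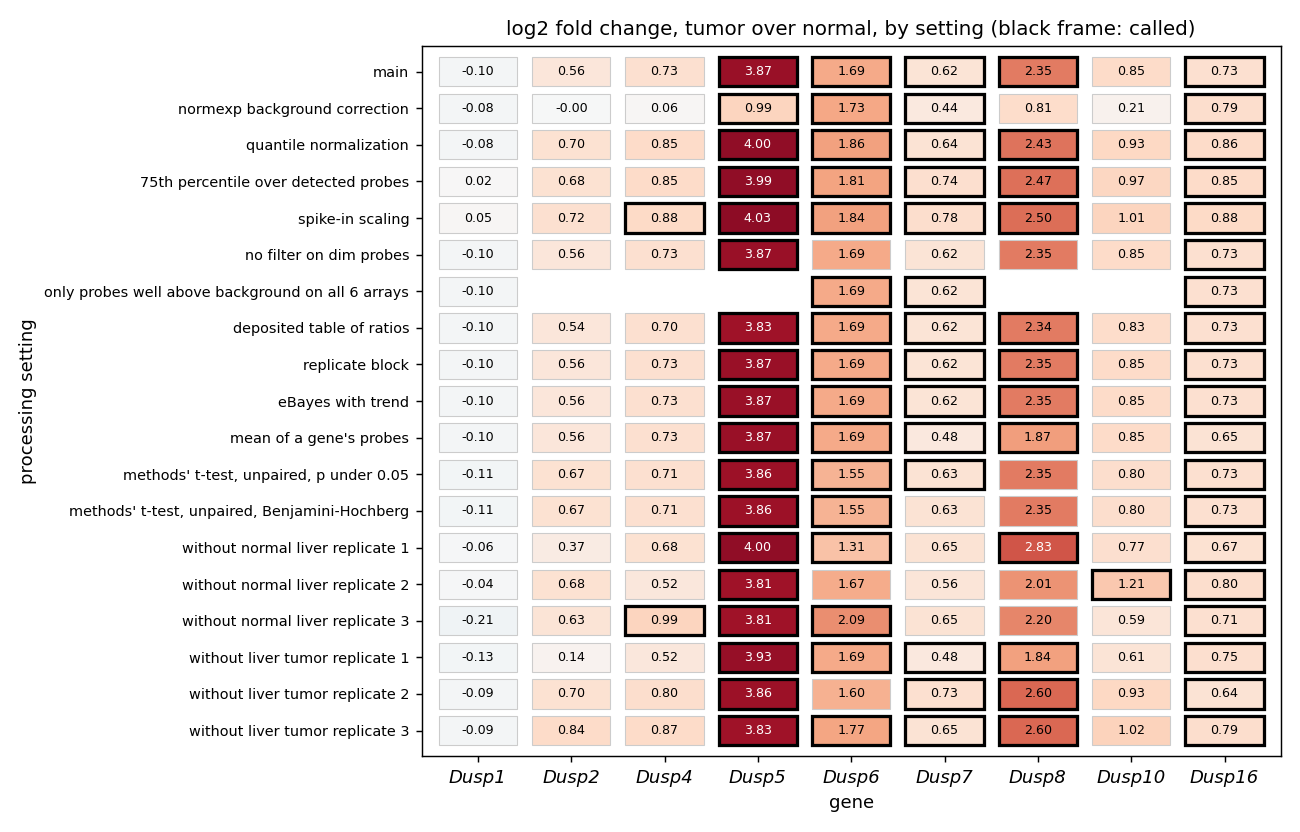
Log2 fold change of liver tumor over normal liver for the 9 tested Dusp genes under each processing setting without pairing, and with the replicate number as a block, colored from blue (lower) to red (higher), with a black frame where the gene was called at p under 0.05 by the test of that row. Dusp5 and Dusp16 are framed in every row in which they were tested, Dusp8 is not framed with normexp, where its value is 0.81, and empty cells mark genes that did not pass the stricter filter.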

How the data were processed

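Total RNA of 3 normal livers and 3 liver tumors was labelled with Cy3 by the authors. Deposited Feature Extraction output (version 10.7.3.1 per the file headers) gave the background subtracted signal intensity of each spot, and the authors also deposited its ratio to the array's 75th percentile. Log2 intensities minus log2 of that percentile over all spots were computed, without control spots and outliers, and spots of a probe averaged. Of 55681 probes, the 24901 that were well above background throughout at least 1 group were fitted with limma 3.58.1 in R 4.3.3 (lmFit, eBayes), two-sided, without a block, and adjusted over all of them. Tables and figures were made in Python 3.11.15. Of several probes of a gene, the brightest on average (log2) stood for it. The members and lists were chosen with earlier results of these data known. The genes named were all members, up to 4 called genes of each list with the largest change, the 3 genes nearest in pattern to the member with the largest rise, and all genes that small counts cover, and other genes were named after their values were seen. Lists were not tested as sets. The values of 1 called gene of the lists are not reported here. Gene positions and promoters came from RefSeq, GRCm38.p6. Alternatives were normexp with an offset of 50, quantile normalization, the percentile over detected probes, spike-in scaling, other filters, the table of ratios, the replicate block, a trend, probe means, the methods' t-test and each array left out. The fit was tested on simulated data. The number of arrays limits the precision.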

Additional observations from a re-analysis of the deposited data

How the results depend on the processing

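Of the 5 members called higher, the count was 2 without a filter on dim probes and 3 with the stricter filter. The stricter filter leaves out Dusp5 and Dusp8. With arrays left out the count was 3 to 5, lowest without normal liver 2 (Dusp5, Dusp10 and Dusp16). For a comparison of 2 groups the paper's methods name a paired t-test. In that form 2 members, Dusp5 and Dusp16, had p under 0.05, and 0 were called after Benjamini-Hochberg adjustment. An unpaired form of the t-test with the same adjustment called 3. No member was called lower under any alternative. Dusp2 reversed to -0.0029 with normexp, and Dusp1 to 0.018 with the percentile over detected probes and 0.052 with spike-in scaling. The 8239 called probes became 5063 with spike-in scaling, 4674 without a filter, 5261 and 0 with the unpaired and paired t-test after adjustment (7419 by the paired form at p under 0.05), and 4954 to 7171 with arrays left out, lowest without normal liver 2. Spike-in scaling moved the median of all probes from -0.13 to 0.02 on the log2 scale, and 59.6% of the called probes were then higher, against 37.8% with the 75th percentile over all spots, 46.8% after quantile normalization and 51.6% with the percentile over detected probes.

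The 4 called MAP kinases became 2 with normexp, quantile normalization, the detected percentile and probe means, 1 with spike-in scaling, no filter and the replicate block, and 1 to 2 with arrays left out. The 2 MAP kinase kinases became 1 with normexp, both other normalizations, spike-in scaling and the block, 0 without a filter, and 0 to 2 with arrays left out. The 11 immediate early genes became 7 without a filter. The 4 glucocorticoid-responsive genes became 1 without a filter, 2 with the block and 1 to 4 with arrays left out. The atypical phosphatase became 0 with normexp, quantile normalization, the detected percentile, spike-in scaling, no filter and the block, and 0 to 1 with arrays left out. The other MAP kinase phosphatase became 2 with normexp, 0 with quantile normalization, spike-in scaling and the trend, and 0 to 1 with arrays left out. The cause of these moves was not tested.

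Deviations from the group means correlated at 0.07, 0.13 and 0.05 for samples of the same replicate number. For samples of different numbers the correlations ran from -0.139 to 0.055. These values do not settle whether the numbers mark pairs. The fit was unpaired because the labels name no shared animal, although the paper's methods name a paired t-test. With the replicate block 5 members and 7021 probes were called. The slide could not be fitted as a block, since no slide held both groups.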
